A study of Mus musculus with 2 samples.

Results

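The distal end of mouse chromosome 3 was taken as the ELF1 peaks of the optimal list with a summit in the 25 Mb that begin at 130 Mb in mm10 coordinates. Of the 29086 optimal peaks, 419 were members, and another 1102 lay on the rest of the chromosome. ELF1 was mapped by ChIP-seq in CH12.LX, an immortalized B-cell lymphoma line of a female mouse of strain B10.H-2aH-4bp/Wts, with an antibody against ELF1 in 2 biological replicates that form 1 group, and was deposited as lists of peaks. Both replicates came from 1 cell line of 1 donor, and there was no second condition, so the comparisons below set the distal region beside the rest of chromosome 3 and the replicates beside each other. The optimal list holds the peaks of both replicates together that passed a threshold on reproducibility. The relaxed lists of replicate 1, of replicate 2 and of both pooled hold 300000 entries each, peaks and background alike. The peak signal is the value the peak caller gave, on a scale that is not given and that differs between lists. Read depth is unknown from these lists. The promoters of Cd79a, Cd79b, Ms4a1, Pax5 and Ebf1, genes that mark B cells, each held an optimal peak, which says nothing of their expression.

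ELF1 belongs to the ETS family of transcription factors, which bind DNA around a GGAA core through a winged helix-turn-helix domain. In lymphoid cells it is found at promoters of widely expressed genes and at regulatory elements of immune genes. The distal region holds genes of B cell signalling (Bank1, Dapp1, Bcl10, Nfkb1), genes of transcription and translation (Gtf2b, Eif4e, Rpl34), the alcohol dehydrogenase, guanylate binding protein and Clca clusters, and long genes of neurons and other tissues. The region was chosen by position with earlier results of these data known. Its count and signal in the optimal list are therefore a description, peaks are not replicates, and no test was run between the region and the rest. Intervals are 95% exact binomial intervals and cover counting error only.

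The sequences shown first are 250 bases before the start sites of 5 bound promoters and 1 unbound promoter, from RefSeq on GRCm38.p6 and read 5′ to 3′ along the gene. They are those of the strongest promoter peaks of the region (Gtf2b and 2410004B18Rik), a pair of B cell signalling genes (Bcl10 and Dapp1), and a bound and an unbound guanylate binding protein gene (Gbp7 and Gbp2). Capitals mark GGAA and its reverse complement TTCC.
Gtf2b, chr3:142764997-142765246, plus strand: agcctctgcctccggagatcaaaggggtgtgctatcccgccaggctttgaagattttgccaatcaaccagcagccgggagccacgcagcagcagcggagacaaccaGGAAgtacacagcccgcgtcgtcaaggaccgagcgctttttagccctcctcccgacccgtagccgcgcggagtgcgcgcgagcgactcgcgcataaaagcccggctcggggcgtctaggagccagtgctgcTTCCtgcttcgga
2410004B18Rik, chr3:145937764-145938013, plus strand: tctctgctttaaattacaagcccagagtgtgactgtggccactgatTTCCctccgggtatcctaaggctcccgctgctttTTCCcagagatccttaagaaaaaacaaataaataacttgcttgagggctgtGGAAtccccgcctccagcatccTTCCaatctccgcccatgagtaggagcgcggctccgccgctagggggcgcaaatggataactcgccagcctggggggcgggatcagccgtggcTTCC
Bcl10, chr3:145924012-145924261, plus strand: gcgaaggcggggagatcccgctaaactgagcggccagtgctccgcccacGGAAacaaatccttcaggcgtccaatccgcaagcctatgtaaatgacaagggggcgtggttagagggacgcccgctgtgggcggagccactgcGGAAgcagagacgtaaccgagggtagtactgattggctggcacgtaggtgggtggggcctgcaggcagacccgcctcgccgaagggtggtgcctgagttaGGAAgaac
Dapp1, chr3:137981550-137981799, minus strand: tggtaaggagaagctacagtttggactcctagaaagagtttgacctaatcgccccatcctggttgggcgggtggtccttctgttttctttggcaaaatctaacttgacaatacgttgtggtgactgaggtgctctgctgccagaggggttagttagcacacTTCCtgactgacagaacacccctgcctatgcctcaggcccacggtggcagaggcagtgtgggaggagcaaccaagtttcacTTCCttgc
Gbp7, chr3:142530086-142530335, plus strand: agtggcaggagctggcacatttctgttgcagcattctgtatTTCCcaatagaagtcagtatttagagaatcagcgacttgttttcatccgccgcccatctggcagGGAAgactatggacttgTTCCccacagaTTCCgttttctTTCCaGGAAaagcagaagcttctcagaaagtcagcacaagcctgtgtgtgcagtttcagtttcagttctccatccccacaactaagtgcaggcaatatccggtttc
Gbp2, chr3:142620413-142620662, plus strand: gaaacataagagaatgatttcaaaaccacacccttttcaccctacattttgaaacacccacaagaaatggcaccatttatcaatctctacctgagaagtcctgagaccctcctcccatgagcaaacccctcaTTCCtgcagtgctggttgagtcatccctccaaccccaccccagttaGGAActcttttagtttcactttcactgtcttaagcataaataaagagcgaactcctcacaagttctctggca
The core is marked 2 times before Gtf2b, 5 times before 2410004B18Rik, 3 times before Bcl10, 2 times before Dapp1, 6 times before Gbp7 and 2 times before the unbound Gbp2. The summit lay 98 bp before the start of Gtf2b, 15 bp before that of 2410004B18Rik, 30 bp before that of Bcl10, 79 bp before that of Dapp1 and 33 bp before that of Gbp7. Not all bound genes of the region were like these. Within 100 bp of the 5′ end lay the strongest summit of 26 of 65 (40.0%), beside 52.3% on the rest and 54.2% genome-wide. Median distances were 147, 87 and 85 bp in the same order. On either strand GGAA occurred before 55 of the 57 bound genes of the region with a sequence, before 48 of the 51 unbound ones and before 94.2% of all 27025 genes in the table, counting any of a gene's windows. The longer word CCGGAAG occurred before 7 of 57 bound and 3 of 51 unbound genes, and before 7.83% of all genes, and none of the 6 sequences above holds it. Among the unbound genes, Adh5 has the word before its other start, where an optimal peak of 183 lay. Aimp1 and Tbck, both counted as bound, share the same copy of the word. A match describes these letters and is no measured site.

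Sequences of distal peaks could be read only on the mm9 build, from the older deposited list. The 4 strongest mm9 peaks of the region over 2 kb from every annotated transcript start are shown because the strongest pair share a word. Each line gives 101 bases centred on the summit, plus strand, with GGAA and TTCC in capitals, named by the nearest protein-coding gene.
St6galnac5, first peak, chr3:152592918-152593018: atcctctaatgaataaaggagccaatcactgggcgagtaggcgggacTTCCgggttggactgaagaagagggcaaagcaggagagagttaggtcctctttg
Manba, chr3:135234633-135234733: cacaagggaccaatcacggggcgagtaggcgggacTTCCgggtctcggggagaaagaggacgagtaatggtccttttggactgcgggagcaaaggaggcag
St6galnac5, second peak, chr3:152956012-152956112: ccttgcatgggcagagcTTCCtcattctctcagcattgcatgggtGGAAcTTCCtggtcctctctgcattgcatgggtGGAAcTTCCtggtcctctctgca
Lef1, chr3:130722142-130722242: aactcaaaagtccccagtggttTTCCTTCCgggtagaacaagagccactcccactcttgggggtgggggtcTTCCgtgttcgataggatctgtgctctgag
The first St6galnac5 peak and the Manba peak share the word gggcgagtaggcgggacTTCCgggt, 25 bases long, which holds the reverse complement of CCGGAAGT. The mm9 genome holds 15 copies of this word, and 5 of them lie in peaks of the mm9 list. On chromosome 3 the 2 copies are those of these 2 peaks. In the second St6galnac5 peak GGAACTTCC occurred 2 times within 100 bp of the summit.

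The distal region was dense in ELF1 entries for its number of genes. The optimal list gave 16.8 peaks per Mb in the distal region and 8.35 per Mb on the rest of chromosome 3, a ratio of 2.01 (95% interval 1.79 to 2.25). Protein-coding 5′ ends went the other way, with 5.04 per Mb in the distal region and 6.46 per Mb on the rest. That made 3.33 optimal peaks per gene start in the distal region and 1.29 on the rest. The distal region held 27.5% of the chromosome's optimal peaks on 15.9% of its length, where length runs from the first to the last pooled summit. The rest was not uniform. Its stretch from 80 to 105 Mb, equal in length to the distal region, held 499 optimal peaks, more than the 419 of the distal region. That stretch also held 400 protein-coding 5′ ends, where the distal region held 126.

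The relaxed lists showed a larger excess than the optimal list. The pooled list held 7682 entries in the distal region and 13133 on the rest of chromosome 3. Replicate 1 held 6678 entries in the distal region and 13433 on the rest, and replicate 2 held 6788 and 13257 in the same order. Per Mb this was 307 in the distal region and 99.6 on the rest for the pooled list (ratio 3.09, 3.0 to 3.17), 267 and 101.8 for replicate 1 (ratio 2.62, 2.55 to 2.70), and 272 and 100.5 for replicate 2 (ratio 2.70, 2.62 to 2.78). The excess was present in each replicate by itself.

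The excess was also present away from the optimal peaks. Of the pooled entries, 6927 in the distal region and 11343 on the rest lay over 1 kb from every optimal summit, which is 277 per Mb in the distal region and 86.0 per Mb on the rest (ratio 3.22). The same ratio was 2.69 in replicate 1 and 2.78 in replicate 2. These weak entries had a median signal of 7.77 in the distal region and 7.22 on the rest in the pooled list. Their medians were 4.35 and 3.89 for replicate 1 and 4.80 and 4.52 for replicate 2, in the same order. The quartiles overlapped widely, at 6.59 to 9.71 in the distal region and 6.36 to 8.96 on the rest in the pooled list.

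Bins of 1 Mb were compared at similar numbers of gene starts. The distal region had 4 bins with no protein-coding 5′ end, which held 91 to 288 pooled entries (median 220), and the rest had 20 such bins with 5 to 100 entries (median 21.5). These groups overlapped only through the lowest distal bin, which begins at 150 Mb and held 91 pooled entries, 81 in replicate 1, 93 in replicate 2 and 0 optimal peaks. In bins with 6 or more 5′ ends, 9 in the distal region held 380 to 494 pooled entries and 53 on the rest held 11 to 323, without overlap. In replicate 1 these bins ran from 323 to 427 in the distal region and from 18 to 285 on the rest, and in replicate 2 from 323 to 444 and from 22 to 308, again without overlap. The bins with 1 to 5 starts overlapped, at 137 to 435 pooled entries in the distal region and 5 to 277 on the rest.

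**Figure D1:**
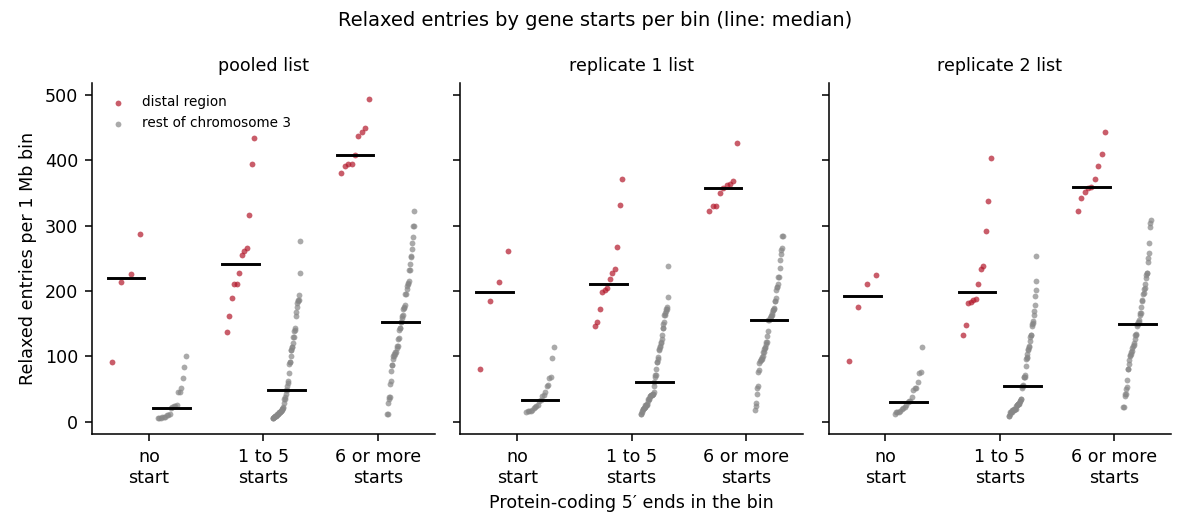
Relaxed entries per 1 Mb bin of chromosome 3 (vertical axis, number of entries) by the number of protein-coding 5′ ends in the bin, for the pooled list and each replicate. Points are bins, red for the distal region and grey for the rest, and black lines are medians. With no start the pooled medians are 220 and 21.5, and with 6 or more starts the distal bins lie above all others.

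Long genes with no optimal summit inside the gene body were also compared. There were 7 such protein-coding genes of at least 100 kb in the distal region and 55 on the rest. Pooled entries ran from 81.2 to 362 per Mb of gene body in the 7 distal genes (median 179) and from 0 to 235 on the rest (median 49.97). Tbck, which encodes a kinase-like protein, had 362 pooled entries per Mb, 311 in replicate 1 and 324 in replicate 2. The gene body of Tbck holds no optimal summit, but its promoter does, with a peak of 206 whose summit lies 34 bp before the start. Unc5c, a netrin receptor gene of neurons, had 179, 168 and 168 in the same order, and Stpg2 had 182, 159 and 159. The ranges overlapped, since Sgms2, a sphingomyelin synthase gene, had 81.2 pooled entries per Mb and Tacr3, a neurokinin receptor gene, had 114.

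The edges of the region were not sharp. Pooled entries per 1 Mb bin were 187 from 126 Mb, 175 from 127 Mb, 24 from 128 Mb, 153 from 129 Mb, 137 from 130 Mb, 190 from 131 Mb, 262 from 132 Mb and 435 from 133 Mb. At the other end they were 438 from 153 Mb and 255 from 154 Mb, and in the next 4 bins outside the region 114, 121, 277 and 194, of which the third exceeds the last bin inside. The first optimal peaks inside the lower edge lay near Sec24b with signals of 29.7 and 14.7, and those just outside it lay near Casp6 (30.7) and Mcub (51.4). The last peaks inside the upper edge lay near Erich3 (36.1 and 48.2), and those just outside it near Fpgt (239) and Lrriq3 (30.8).

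**Figure D2:**
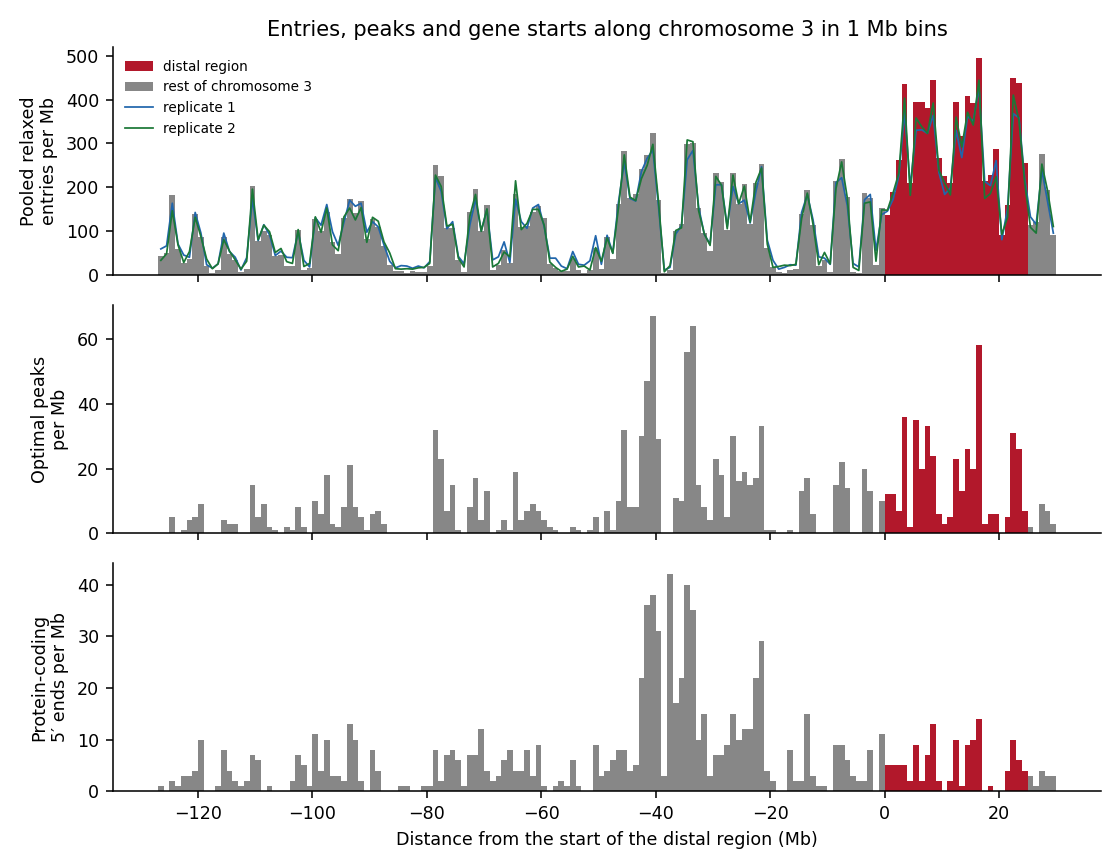
Pooled relaxed entries (top, with lines for each replicate), optimal peaks (middle) and protein-coding 5′ ends (bottom) per 1 Mb bin of chromosome 3, against distance in Mb from the start of the distal region. Red bars are the distal region and grey bars the rest. The tallest pooled bin, with 494 entries, is in the distal region, while gene starts are densest elsewhere on the chromosome.

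The excess varied with the strength of the entries. Among the 5000 strongest entries, the distal region held 54 of chromosome 3's pooled entries and the rest held 206, so that its share was 20.8% (16.005% to 26.2%). In replicate 1 the counts were 53 and 200 (20.9%) and in replicate 2 they were 55 and 208 (20.9%). The share was highest in the middle of the lists. Among pooled entries ranked 50001 to 100000 it was 45.4% (43.7% to 47.0%), and in the same ranks it was 40.9% in replicate 1 and 41.2% in replicate 2. Among the weakest 100000 entries the pooled list had 31.4%, while replicate 1 had 28.6% and replicate 2 had 29.0%. The interval of the strongest entries reached down to 16.005%, next to the 15.9% share of length, while those of the middle ranks lay far above it.

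**Figure D3:**
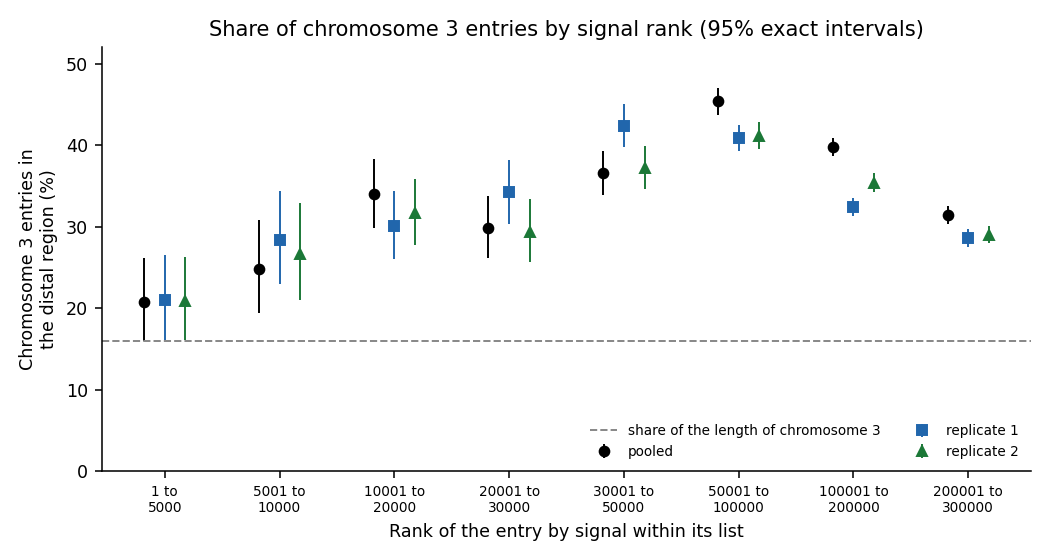
Percentage of the chromosome 3 entries that lie in the distal region (vertical axis) by rank of signal within the pooled list and each replicate's list (horizontal axis). Bars are 95% exact intervals and the dashed line is the region's 15.9% share of length. In all 3 lists the share is lowest among the strongest entries and peaks in middle ranks, at 45.4% (pooled), 42.4% (replicate 1) and 41.2% (replicate 2).

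Optimal peaks of the distal region were of ordinary strength, with fewer very strong ones. The median signal was 36.5 in the distal region (quartiles 24.5 and 58.1) and 39.4 on the rest (25.2 and 80.2), beside 39.7 over the whole list. The strongest 10% of the list, with signals from 173 up, held 30 of the 419 distal peaks (7.16%) and 116 of the 1102 others (10.5%), where the whole list has 10% by construction. The highest signal was 534 in the distal region and 574 on the rest.

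Peaks of the distal region lay far from gene starts more often. A summit within 1 kb of a protein-coding 5′ end was found for 82 of 419 distal peaks (19.6%, 15.9% to 23.7%) and for 352 of 1102 on the rest (31.9%, 29.2% to 34.8%), where 32.2% of the whole list passed. A further 26 distal peaks (6.21%) lay within 1 kb of another annotated start, beside 9.17% on the rest and 7.40% of the whole list. Of the distal peaks 36.04% lay inside protein-coding genes, beside 24.95% on the rest and 32.04% of the whole list. Another 38.2% lay outside them, beside 33.9% and 28.3% in the same order. Over 50 kb from every protein-coding 5′ end lay 174 distal peaks (41.5%) and 204 on the rest (18.5%), beside 18.8% of the whole list. Peaks that were not at promoters had a median signal of 34.2 in the distal region and 32.6 on the rest, and the difference was small beside their quartiles of 24.2 to 50.8 and 23.9 to 57.5.

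Both replicates held most of the members. This is partly built in, since the optimal list passed a threshold on reproducibility and the relaxed lists hold background too. A summit within 100 bp in both relaxed replicate lists was found for 348 of 419 distal peaks (83.1%, 79.1% to 86.5%) and 942 of 1102 on the rest (85.5%, 83.3% to 87.5%), where 85.4% of the whole list passed. Of the other distal peaks 22 had an entry in replicate 1 alone, 47 in replicate 2 alone and 2 in neither. At promoters the share was 68 of 82 distal peaks (82.9%) and 318 of 352 on the rest (90.3%), with overlapping intervals of 73.0% to 90.3% and 86.8% to 93.2%. Over the whole list 88.4% of promoter peaks passed. Signal in replicate 2 was 1.34 times that in replicate 1 at the median distal peak and 1.32 times on the rest, and the SD of the log2 ratio was 0.71 and 0.67.

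Promoters of the distal region were bound more often than those of the rest. An optimal summit lay within 1 kb of the 5′ end of 65 of 126 protein-coding genes in the distal region (51.6%, 42.5% to 60.6%) and of 325 of 852 on the rest (38.1%, 34.9% to 41.5%), beside 39.5% of all 21317 genes. The 65 genes shared 58 peaks. The strongest peak at each bound promoter had a median signal of 112 in the distal region (quartiles 54.3 and 228) and 84.2 on the rest (43.0 and 196), beside 97.1 for all bound genes. In replicate 1 these medians were 48.2 in the distal region and 36.4 on the rest, and in replicate 2 they were 63.6 and 50.7. A signal of 200 or more was reached at 20 of 65 bound distal promoters (30.8%) and 77 of 325 on the rest (23.7%), where 25.1% of all bound promoters reached it. The quartiles of the groups overlapped widely. These values take the strongest peak of each gene and count a shared peak once per gene. Counted once each, promoter peaks had a median of 57.6 in the distal region, 67.5 on the rest and 68.5 over the whole list. That order is the reverse of the order per gene.

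Unbound promoters of the distal region held weak entries more often than those of the rest. Weak entries were denser across the whole distal region. Over 1 kb from optimal summits the pooled list had 277 per Mb there and 86.0 per Mb on the rest. The difference at promoters was not tested apart from that density. A pooled entry lay within 1 kb of the 5′ end of 33 of 61 unbound distal genes (54.1%, 40.8% to 66.9%) and of 174 of 527 on the rest (33.0%, 29.0% to 37.2%), beside 31.6% of unbound genes genome-wide. Entries of both replicates lay at 22 of 61 (36.1%, 24.2% to 49.4%) and at 107 of 527 (20.3%, 16.9% to 24.0%), beside 20.6% genome-wide. Acadm, the medium-chain acyl-CoA dehydrogenase gene, had the strongest of these, with a pooled signal of 30.2, beside 12.05 in replicate 1 and 19.9 in replicate 2.

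A list was made mostly of genes of transcription, translation, RNA and protein handling, with some of cell division and the centrosome. It was bound in all 16 cases counted, with a median signal of 171, beside 51.6% of the region's genes and 39.5% of all genes. The list was chosen with earlier results of these data known. Its members include Cenpe, Odf2l and Ssx2ip, as well as Pigk (attachment of glycolipid anchors), Usp33 (a deubiquitinase), Rabggtb (prenylation of Rab proteins) and Ostc (glycosylation), so the count is not one of transcription and translation genes alone. Replicate values at promoters are the strongest entry within 1 kb of the 5′ end in that replicate's list. Gtf2b, which encodes the general transcription factor TFIIB, had the strongest promoter peak of the region, with 534 in the optimal list, 252 in replicate 1 and 288 in replicate 2. Its peak spanned chromosome 3 from 142764962 to 142765385. Rpl34, a protein of the large ribosomal subunit, had 361, 176 and 187 in the same order. Cenpe, the kinetochore motor gene, had 340, 139 and 197. Zzz3, a subunit of a histone acetyltransferase complex, had 251, 113 and 138. The translation initiation factor gene Eif4e had 180, 82.8 and 96.8, with a summit 919 bp into the gene. Replicate 2 was higher at all 5, as it was at 82.1% of the promoter peaks of the whole list found in both replicates. The others were Trmt10a (284), Usp33 (228), Odf2l (210), the histone variant gene H2az1 (161), Pigk (118), Fubp1 (103), Tyw3 (100.3), Ostc (92.7), Rabggtb (66.1), Ssx2ip (57.9) and Metap1 (26.9).

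Other strong promoter peaks belonged to 2410004B18Rik (523 in the optimal list, 255 in replicate 1 and 271 in replicate 2) and to Rpf1, a ribosome biogenesis gene (395, 174 and 220). Gstcd and Ints12, a subunit gene of the Integrator complex, shared 1 peak between their starts (287, 141 and 144). Mttp, the microsomal triglyceride transfer protein gene known for lipoprotein assembly in liver and gut, shared its peak (284, 126.0 and 155.5) with Trmt10a, a tRNA methyltransferase gene that starts head to head with it.

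**Figure D4:**
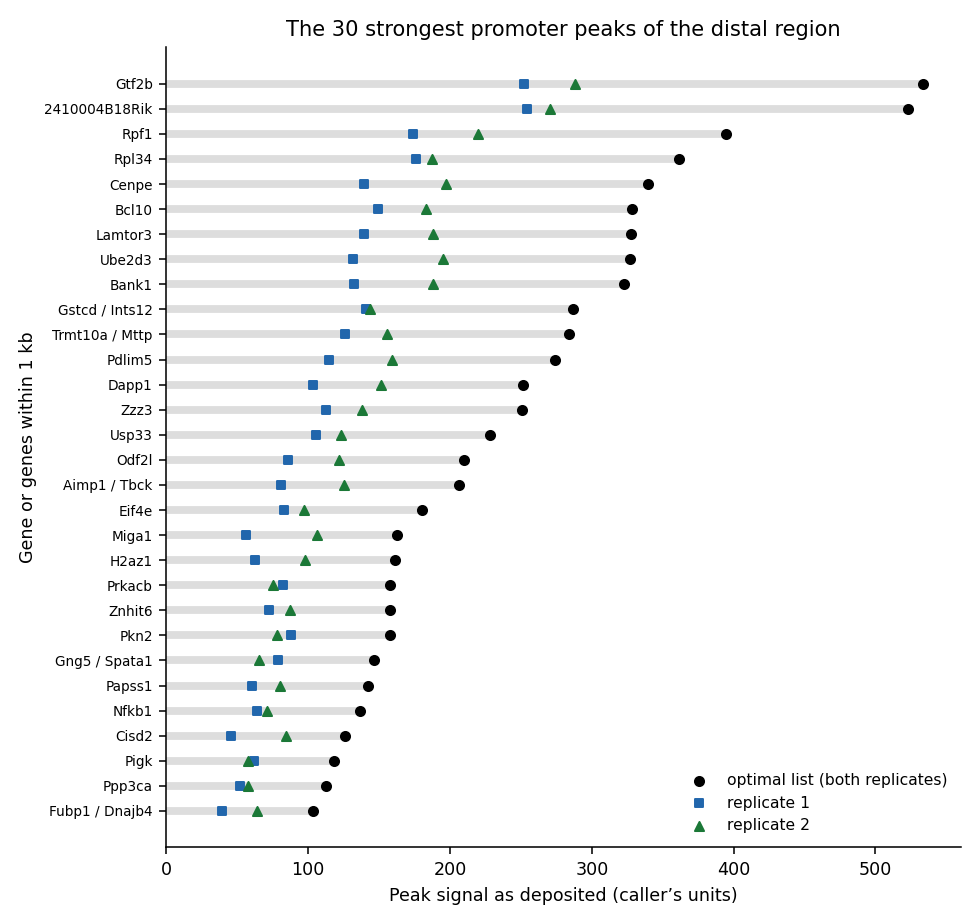
Signal of the 30 strongest promoter peaks of the distal region (horizontal axis, in the caller's units), with the genes within 1 kb. Circles are the optimal list, squares replicate 1 and triangles replicate 2, each on its own list's scale. Gtf2b and 2410004B18Rik stand apart at 534 and 523.

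A list of B cell and immune genes with some of more general functions was bound in 10 of 15 cases. Among the region's genes 51.6% were bound, and among all genes 39.5%. Members of the list include Ube2d3, Prkacb, Ppp3ca and Manba, as well as the unbound Slc39a8 and Sgms2. The count is therefore not one of B cell and immune genes alone. Bcl10, which links antigen receptor signals to NF-kB, had 328 in the optimal list, 149 in replicate 1 and 183 in replicate 2. The ubiquitin-conjugating enzyme gene Ube2d3 had 327, 132 and 195. Bank1, a scaffold of B cell receptor signalling, had 323, 132 and 188. These 3 peaks were nearly equal in each list. Dapp1, an adaptor of phosphoinositide kinase signalling in B cells, had 251, 103 and 151.3, and Nfkb1, which encodes the p105 precursor of the p50 subunit of NF-kB, had 136, 64.0 and 70.8. Weaker peaks stood at the protein kinase A gene Prkacb (158), the calcineurin gene Ppp3ca (112), the methylcytosine dioxygenase gene Tet2 (54.3), the lysosomal gene Manba (51.7) and the lysosomal channel gene Mcoln2 (33.7). No optimal summit lay within 1 kb of the 5′ end of Lef1, Ifi44, Ifi44l, Slc39a8 or Sgms2. Lef1 had a peak of signal 40.7 and Slc39a8 one of 19.4 within 1 kb of another start in the promoter table.

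Several of these loci held many peaks inside the gene. The gene body of Ppp3ca, 268 kb long, held 17 optimal peaks, the most of any gene in the region, and 171 pooled entries. That of St6galnac3, a sialyltransferase gene of 527 kb, held 10 optimal peaks and 230 pooled entries, that of Ttll7 held 9 optimal peaks, and those of Nfkb1, St6galnac5 and Tspan5 8 each. Neighbouring peaks were often close, with 75 of 418 gaps between distal summits (17.9%) under 1 kb and 177 of 1100 on the rest (16.1%), so peaks of 1 gene are not independent. The region's 1 Mb bin richest in optimal peaks ran from 146 Mb, with 58 peaks at and around Mcoln2, Mcoln3, Ssx2ip, Prkacb, Rpf1 and Ttll7. On the rest of the chromosome the bin from 89 Mb held more, with 67.

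The gene clusters of the region differed. Guanylate binding proteins are interferon-induced GTPases, and Gbp7 (68.3), Gbp5 (52.2) and Gbp3 (43.2) had promoter peaks while Gbp2 and Gbp2b did not. Gbp7 had 27.8 in replicate 1 and 40.0 in replicate 2, and Gbp5 had 29.1 and 23.2. The Gbp3 peak had 37.9 in replicate 2 and no entry of replicate 1 within 100 bp of its summit, and the strongest replicate 1 entry within 1 kb of the 5′ end had 20.7. At Gbp2 the pooled entry had 18.7, that of replicate 1 had 10.3 and that of replicate 2 had 14.7, below the strongest entry within 1 kb of each bound member in each list. Of 6 alcohol dehydrogenase genes, Adh7 was bound, with a signal of 35.1 at its RefSeq 5′ end, far from the start given for it in the promoter table. Adh5, the widely expressed formaldehyde-detoxifying member, had no summit at its 5′ end but one of 183 within 1 kb of its other start, with 73.8 in replicate 1 and 110 in replicate 2. None of the 7 Clca genes, regulators of chloride conductance in epithelia, was bound, beside 51.6% of the region's genes and 39.5% of all genes. Pooled entries stood at Clca3a2 (9.23) and Clca4b (7.08) alone.

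Metabolic genes were bound in 5 of 12 cases, near the 39.5% of all genes but below the 51.6% of the region's genes. Vesicle and endosome genes were bound in 6 of 9. Mttp shares its peak with Trmt10a, Cryz with Tyw3 and Dnajb4 with Fubp1, and these partners are already counted above. Mttp (284), Papss1 (142), Cisd2 (125.7), Cryz (100.3) and Kyat3 (57.2) were bound among the first, and Hadh, Acadm, Bdh2, Ak5, Ddah1, Etnppl and Cyp2u1 were not. Lamtor3, a subunit of the Ragulator complex on lysosomes, led the second list with 328, ahead of Gng5 (146), Dnajb4 (103), the COPII coat gene Sec24b (71.0), Dnajb14 (55.0) and Tspan5 (44.7). Rap1gds1, Gipc2 and Mcoln3 had no peak at the 5′ end used, but Mcoln3 had one of 24.6 within 1 kb of another start. A mixed list held genes of other tissues, with neurons, muscle and development among them. Below the 51.6% of the region's genes and the 39.5% of all genes, 4 of its 21 cases were bound. These were Pdlim5, which encodes a cytoskeletal LIM domain protein (274 in the optimal list, 115 in replicate 1 and 159 in replicate 2), Erich3 (49.6), Lmo4 (20.9) and Ttll7 (18.01). The Erich3 summit lay 895 bp before its RefSeq 5′ end, far from the start given for it in the promoter table. Among members counted as unbound, Bmpr1b had a peak of 28.9 and Msh4 one of 32.4 within 1 kb of another start. The weakest promoter peaks of the region were those of Ttll7, Arhgef38 (20.05), Wdr63 (20.9), Lmo4 and St6galnac3 (21.9).

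The strongest members over 2 kb from every protein-coding 5′ end reached signals like those of the strong promoters. The first lay outside genes, 86.1 kb from the 5′ end of Manba, on chromosome 3 from 135571583 to 135571857, with 408 in the optimal list, 188 in replicate 1 and 219 in replicate 2. One within St6galnac5, from 152929867 to 152930128, had 390, 185 and 208. One within St6galnac3, from 153292963 to 153293217, had 314, 161 and 157, the only 1 of these 6 with the higher signal in replicate 1. Others lay within Tspan5 (261, 107 and 154), upstream of Lef1, the gene of a T and early B cell transcription factor (254, 102.0 and 150.7), and within Nfkb1 (232, 88.9 and 144). The nearest protein-coding 5′ end lay 52.2 to 311 kb away from these 6 peaks.

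The word CCGGAAGT was rare near mm9 summits, and the intervals of the region and of the rest overlapped. Of 74 mm9 promoter peaks of the region's genes, 7 (9.46%, 3.89% to 18.5%) had CCGGAAGT on either strand within 50 bp of the summit, and 25 of 307 on the rest of chromosome 3 (8.14%, 5.34% to 11.8%), beside 11.6% of all 8790 promoter peaks. GGAA was found at 67 of 74 (90.5%) in the region and at 289 of 307 (94.1%) on the rest, beside 90.6% of all promoter peaks. Over 1 kb from starts, CCGGAAGT was found at 5 of 189 distal peaks (2.65%, 0.864% to 6.07%) and 18 of 369 on the rest (4.88%, 2.92% to 7.60%). The share over all 10014 such peaks of the list was 5.14%.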

How the data were processed

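ELF1 ChIP-seq peak lists of 2 replicates in the narrowPeak format were used. Each replicate's relaxed list was made from its mm10 alignments and a further input file that the README text deposited with it names without describing it, the pooled list from both, the optimal and conservative lists from these by the irreproducible discovery rate, and the mm9 list from both replicates' mm9 alignments. No source used here gives the aligner, the caller or their versions. Signal values were read from column 7 as deposited, without rescaling. Columns 5 and 9 of the deposited mm10 lists, and column 5 of the mm9 list, were taken as scores, and the deposited mm9 column 9 as a −log10 of a q-value. None of these score columns was used.

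The optimal, conservative and pooled lists join both replicates, so the replicates were compared through their own relaxed lists, without a test. A promoter was within 1 kb of the 5′ end of a protein-coding gene in a RefSeq table of GRCm38.p6. Strand came from the RefSeq promoter table (17492 genes), or from GENCODE M1, matched by symbol (3649) or by synonym (394) within a chromosome, for 98.3% of 21900 genes. Of these, 21317 lie on chromosomes with peaks, and 1 gene of the region without a strand was left out. The distal region on mm9 ran between the outermost 5′ ends of the 125 of its 126 genes found in GENCODE M1, and no coordinates were converted. Sequences came from RefSeq (mm10 promoters) and NCBIM37 (mm9 peaks). Coordinates are 1-based.

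The members and gene lists were chosen with earlier results of these data known. Genes named were the 12 with the strongest promoter peaks, the members of the lists, the 5 weakest promoter peaks, the 6 strongest peaks over 2 kb from 5′ ends and the peaks beside each edge. Other genes, bins and the shared word were chosen after their values were seen. List genes outside the region (Casp6, Fpgt, Bbip1, Hpgd and Snx7) were not counted. The functions were checked on simulated positions. Python 3.11.15, pandas 2.3.3, NumPy 2.4.6 and SciPy 1.17.1 were used.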

Additional observations from a re-analysis of the deposited data

How the results depend on the processing

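Ratios between the distal region and the rest of chromosome 3 were given 39 alternative values. Of these, 30 stayed within the interval of the reported ratio and on its side of 1. Another 4 changed side of 1 within the interval, and 5 left it. The excess of optimal peaks per Mb was 1.73 with the region extended to the end of the chromosome, and 2.08 without replicate 1 and 2.23 without replicate 2. No optimal list can be made from 1 replicate, so the values without a replicate use the 29086 strongest entries of the other replicate's relaxed list in its place. The ratio of promoter shares of peaks was 0.552 and 0.614 in the same order, that of bound promoters 1.34 and 1.40, and that of median signal 0.916 and 0.879. Over the optimal peaks above the median signal the ratio of median signals fell to 0.801. Against relaxed density ratios of 3.09 (pooled), 2.62 (replicate 1) and 2.70 (replicate 2) over all entries, the strongest 29086 gave 2.11, 2.23 and 2.08, the last 2 being the same values as above. Ratios near 1 changed side. The share of peaks found in both replicates had a ratio of 0.972, against 1.003 with overlap by 1 bp. The ratio of replicate signals had 1.01, against 0.9999 with summits within 50 bp and 0.980 at promoter peaks. The ETS word had 1.16 for CCGGAAGT and 0.962 for GGAA. The cause was not tested. Counting any start in the promoter table, added after seeing the data, gave 1.33 for bound promoters and 0.623 for the promoter share of peaks. No paired analysis was possible because there was 1 group. With unknown read depth and 2 replicates, no difference of this kind could be tested between samples.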

Other observations

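Across 90 tiles of 25 Mb laid over all chromosomes from 5 Mb on, the distal region ranked 3 in pooled entries, 3 in replicate 1 and 3 in replicate 2, behind a pair of tiles of chromosome 11 with 8265 and 7937 pooled entries. By optimal peaks it ranked 15, and by protein-coding 5′ ends 67. It ranked 1 in pooled entries per 5′ end, with 61.0 against a median of 15.2 over the tiles. By pooled entries per optimal peak it ranked 3, with 18.3 against a median of 11.2. The tiles ahead in this ratio began at 5 Mb on chromosome 3 (19.0, with 79 optimal peaks) and on chromosome 6 (18.6, with 112). The next tiles by pooled entries were on chromosome 16, with 5903 and 5460. The edges of the tiles coincide with those of the region, which was chosen with its values known, so these ranks describe and test nothing.

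The older mm9 list gave a similar share with another set of calls on the same libraries. It held 262 peaks in the distal region and 677 on the rest of chromosome 3, so that 27.9% of the chromosome's mm9 peaks lay in the region. Their median signal was 63.0 in the distal region and 73.5 on the rest.

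Long noncoding RNA starts coincided with some strong members. A peak of signal 226 lay 71 bp from the start of Gm34434 and one of 218 lay 126 bp from that of Gm46828, both nearest to Lmo4, a LIM domain gene, among protein-coding genes. The largest gap between neighbouring summits of the region was 1646 kb long and ran from 149426520 to 151072464.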
